A study of Rattus norvegicus with 18 samples.

Results

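The late transcriptional response of depolarized control neurons was measured as the difference between 3 arrays of cells kept for 6 h in KCl and 3 arrays of cells taken at 0 h. These 6 arrays were chosen by their labels, which give the shRNA, the hours in KCl and a biological replicate number, and they are 6 of the 18 arrays of the series. All were made from rat hippocampal neurons in dissociated culture that had received lentivirus with control shRNAs on day 3. On day 10 the cells of every group were silenced for 1 h with the NMDA receptor antagonist AP5 and the sodium channel toxin TTX. Extracellular KCl at 55 mM was then added and RNA was taken 0 or 6 h later, so the 0 h neurons had only been silenced and were not depolarized. No group was kept for 6 h without KCl. Effects of KCl and of the time that passed after silencing therefore cannot be told apart in any change given here. The same culture and blockers were used for 3 control arrays at 1 h and for neurons with shRNAs against MEF2 (the RNAi arm) at the same times. Replicates are labelled as biological with no word on whether the cultures were separate, so p-values measure the spread between these arrays only. A total of 10934 genes could be tested.

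High extracellular potassium depolarizes the membrane and opens voltage-gated calcium channels. Calcium entry activates kinases and phosphatases that act on transcription factors already in the cell, such as CREB, SRF and MEF2. These switch on immediate early genes within minutes, many of which encode transcription factors themselves, among them the AP-1 subunits of the Fos and Jun families and the Egr and Nr4a proteins. A later wave of genes then encodes secreted factors, channels, synaptic proteins and enzymes, and it is this later time that the 6 h arrays sample.

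Array medians lay between 240 and 248, and within a group the log2 signals of any pair of arrays had a correlation across probe sets of 0.994 to 0.998. Arrays of 0 h and of 6 h correlated at 0.981 to 0.985. Markers of neurons were present on every array and their summed signal overlapped between the groups, at 96400 to 106625 at 0 h and 97809 to 104007 at 6 h. Of the 16 neuron markers tested, 1 rose, 1 fell and 14 were not called, against 16.1% higher and 25.5% lower of all genes. The neurofilament light chain Nefl rose from signals of 4935, 4280 and 4441 to 6449, 5332 and 5879, a call that did not hold for the mean of its probe sets (log2 0.18). The neuronal beta-tubulin Tubb3 fell by 0.37 on the log2 scale. The summed signal of 10 astrocyte markers was 43696 to 58344 at 0 h and 45157 to 54908 at 6 h. Gfap, the intermediate filament of astrocytes, read 11531, 10941 and 11025 at 0 h and 8386, 9210 and 10185 at 6 h, so the cultures held RNA of glia beside that of neurons. Gfap was called lower (log2 -0.27, adjusted p = 0.027, limma), a call that ended without any of 5 of the 6 arrays and with arrays centred (-0.20 to -0.29), and the astrocyte enzyme gene Glul was called higher, at 0.43, a call that ended in 8 settings, among them 4 left-out arrays (down to 0.28 without replicate 2 of 0 h) and the fit to the 6 arrays alone. Of the 11 oligodendrocyte markers and 13 microglial markers on the array, 6 and 8 passed the filter on dim genes, and none of these was called. The summed microglial signal was 1654 to 1877 at 0 h and 1678 to 1764 at 6 h. Endothelial and fibroblast markers summed to 3452 to 4245 and 3851 to 4197, with 2 of 8 called higher (25%, against 16.1% of all genes). Markers of dividing cells summed to 14401 to 23317 and 15956 to 26187, with 1 of 12 called, Mcm2, whose call ended without replicate 2 or 3 of 0 h or replicate 1 of 6 h (log2 0.55, 0.64 and 0.46) and in the fits to the 6 or 9 control arrays. In such bulk samples a smaller number of cells of a type and less RNA per cell cannot be told apart.

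After 6 h the expression of a large part of the tested genes had changed, most of it by small amounts. With limma and a Benjamini-Hochberg adjusted p under 0.05, 1762 genes were called higher (16.1% of those tested) and 2784 were called lower (25.5%), while the unadjusted p was under 0.05 for 5195 genes. The median change of the genes called higher was 0.45 on the log2 scale, and that of the genes called lower was -0.44. The median over all genes tested was -0.02. Changes of at least 2-fold were found for 185 higher genes (1.69%) and 166 lower genes (1.52%), and changes of at least 4-fold for 31 higher and 4 lower genes. The 3 arrays of 6 h lay wholly above those of 0 h for 2147 genes (19.6%) and wholly below for 3259 (29.8%). Among called genes, 1750 of the higher and 2755 of the lower moved the same way in all 3 pairs of arrays with the same replicate number. Of all calls 38.8% were higher, and with each array centred on its median this share was 48.5%, with 2191 genes higher and 2327 lower.

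The level at 0 h differed between genes with large rises and genes with large falls, a description with no test. Tested genes were divided into 3 classes of equal size by their mean signal at 0 h. Of the 3645 genes in the low class, 97 rose at least 2-fold and 42 fell at least 2-fold. In the middle class these counts were 70 and 89, and in the high class 18 and 35. The level at 0 h is itself part of the change, and a gene that is dim at 0 h, such as Serpinb2, passed the filter on dim genes only through groups in which it is bright, so an excess of rises in the low class is favoured by how the classes and the filter were made. The floor of 72.6 that was set on dim signals understates the folds of such genes.

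**Figure D1:**
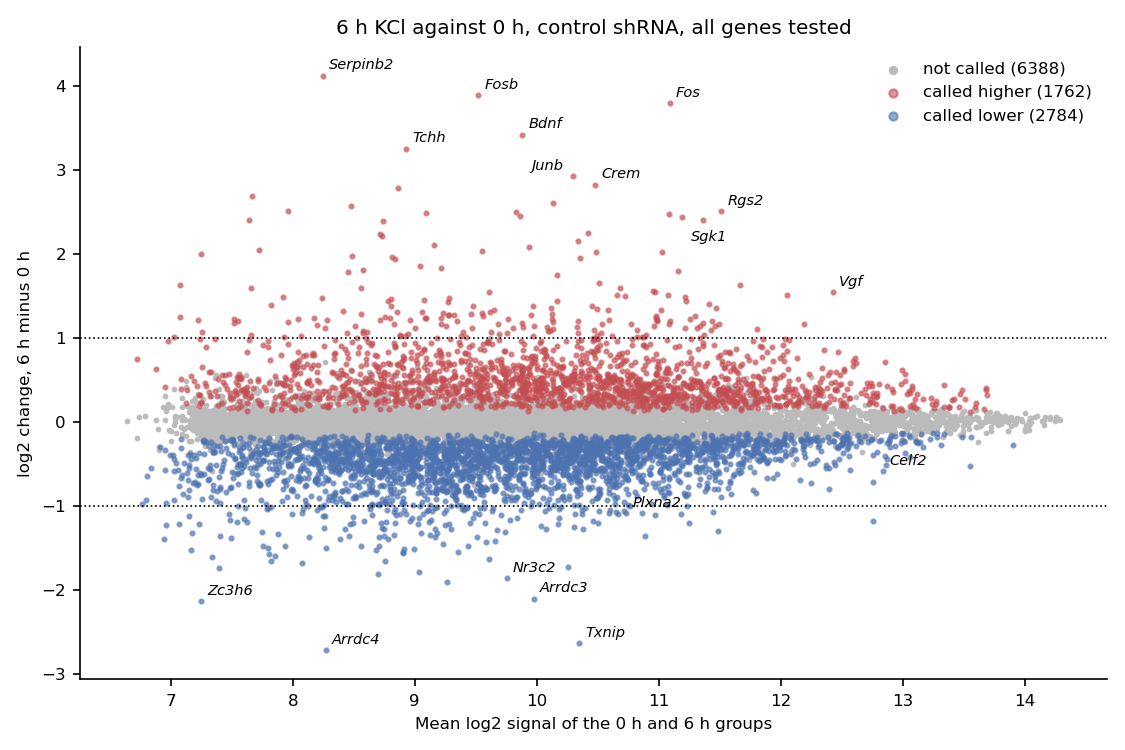
The log2 change from 0 h to 6 h in control neurons (vertical axis) against the mean log2 signal of both groups (horizontal axis), 1 point per tested gene; red points were called higher (1762), blue points lower (2784), and grey points were not called (6388). Dotted lines mark a 2-fold change; the points beyond 2-fold lie mostly at low and middle signals, and Serpinb2 and Arrdc4 stand at the upper and lower ends.

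The 20 largest rises ranged from 5.28-fold to at least 17.4-fold, and 11 of them encode transcription factors that neurons are known to induce. Serpinb2, an inhibitor of plasminogen activators, showed the largest rise. Its signals were 61.9, 40.2 and 36.3 at 0 h, all under the floor, and 1571, 1012 and 1275 at 6 h, so it was at least 17.4-fold higher (adjusted p = 1.2e-11, limma). The AP-1 subunit gene Fosb rose from 213, 240 and 135 to 3064, 2706 and 2746, a change of 3.90 on the log2 scale with a standard error of 0.19 (adjusted p = 1.1e-09). Every 6 h array of Fosb stood far above every 0 h array. Fos read 1193, 613 and 273 at 0 h and 7977, 7985 and 8373 at 6 h, a log2 change of 3.79 ± 0.35 (SE), whereas another Fos probe set changed by only 0.15. Its 0 h arrays were spread over a wide range while its 6 h arrays lay close together.

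Bdnf, the brain-derived neurotrophic factor that supports neuronal survival and synaptic growth, rose from 316, 285 and 265 to 3086, 2856 and 3337. This was a log2 change of 3.42 ± 0.16 (SE; adjusted p = 1.1e-09), and a dimmer probe set of Bdnf rose by 1.22. Tchh, known as a structural protein of hair follicles, read 206, 199 and 94.8 at 0 h and 1368, 1727 and 1437 at 6 h, which is 9.56-fold. The 3 arrays of each group were well apart for both genes. Junb, a Jun-family subunit of AP-1, rose from 427, 507 and 434 to 3271, 3664 and 3482. Crem, which encodes cAMP-responsive activators and the repressor ICER, rose from 635, 565 and 424 to 3952, 3558 and 3860. Egr4, a zinc-finger transcription factor, rose from 234, 160 and 148 to 1296, 1171 and 1214. These 3 genes rose 7.63-fold, 7.09-fold and 6.93-fold, with no overlap between the groups.

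Among the other large rises, Gem and Ccn2 varied most between arrays. Gem, a small GTP-binding protein that inhibits calcium channels, read 89.7, 78.6 and 67.2 at 0 h and 360, 480 and 795 at 6 h. Ccn2, a matrix protein also called connective tissue growth factor, read 116, 204 and 133 at 0 h and 403, 1036 and 1573 at 6 h, a log2 change of 2.57 ± 0.45 (SE; adjusted p = 0.00027). Its lowest 6 h array was still above its highest 0 h array. The orphan nuclear receptor genes Nr4a2 and Nr4a1 rose 6.12-fold and 5.43-fold. Rgs2, which shortens G protein signals, rose from 1578, 1301 and 885 to 6940, 7091 and 6863. Maff, a small Maf protein, rose from 125, 103 and 88.8 to 547, 599 and 646. Atf3, a stress-induced transcription factor, rose from 405, 374 and 366 to 1859, 2263 and 2397. All 3 were between 5.67-fold and 5.71-fold higher.

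Receptors, a cytokine and a kinase completed the group of 20. Il6r, the ligand-binding receptor chain for interleukin 6, rose from 243, 259 and 194 to 1055, 1491 and 1380. Tslp, a cytokine, rose from 88.0, 96.8 and 77.1 to 485, 403 and 500. Sgk1, a kinase known for its control of ion channels and transporters, rose from 1287, 1269 and 920 to 5886, 6005 and 6266. The transcription factor genes Nfil3 and Klf2 rose 5.58-fold and 5.46-fold. The 2 other probe sets of Klf2 that passed the filter changed little, at 0.24 (adjusted p = 0.0499, limma) and 0.18 on the log2 scale, so the rise of Klf2 was read from its brightest probe set alone.

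**Figure D2:**
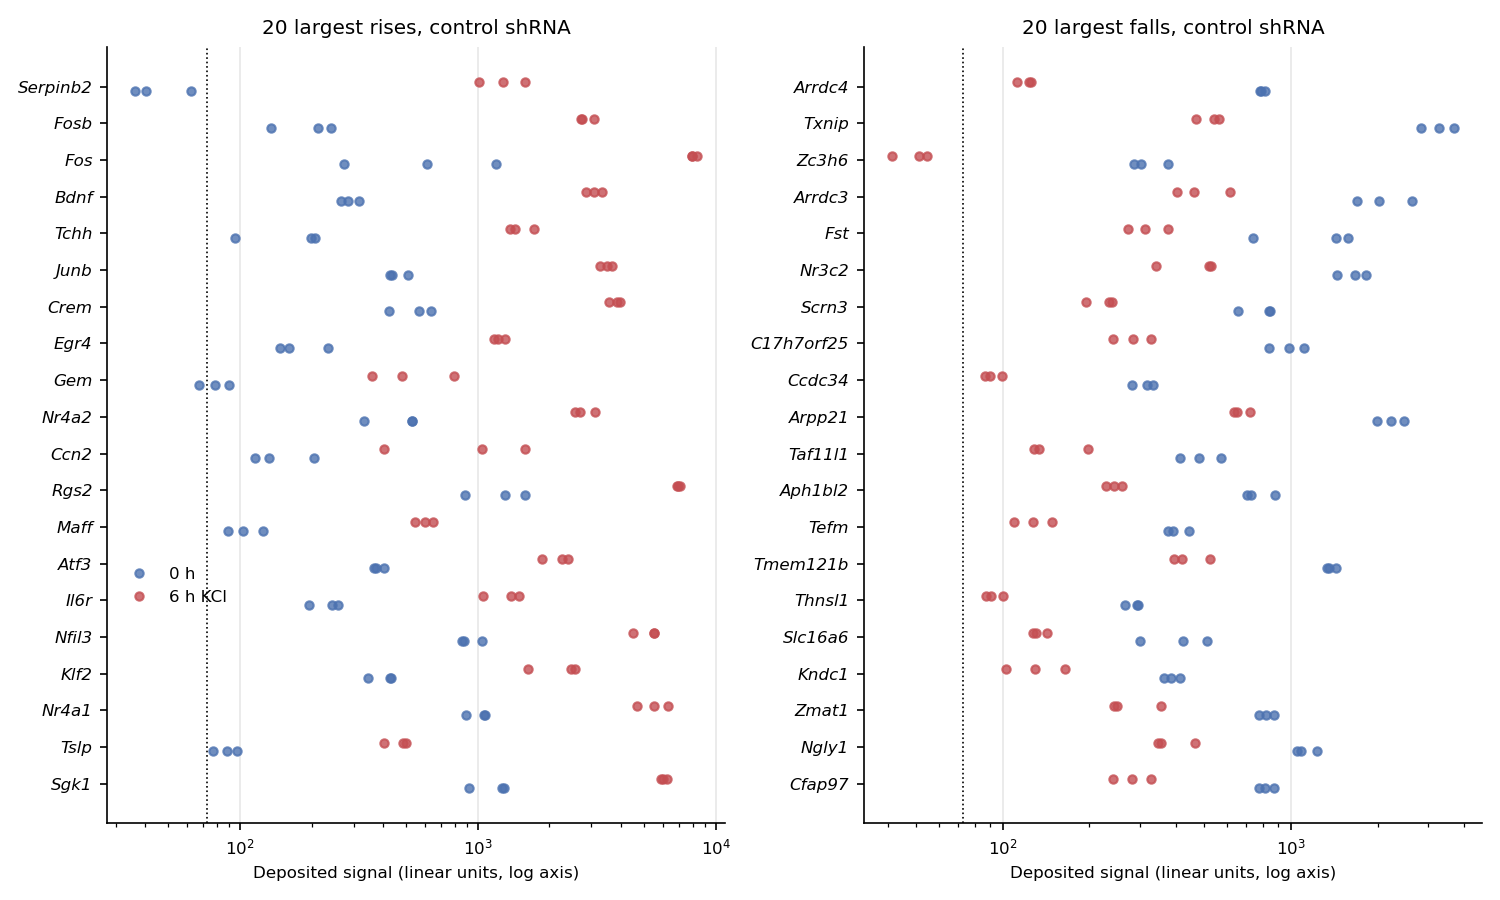
Deposited signal (horizontal log axis, linear units) of each of the 3 control arrays at 0 h (blue) and at 6 h of KCl (red) for the 20 largest rises (left) and the 20 largest falls (right); the dotted line is the floor of 72.6. No gene has overlapping groups, which the choice of these genes required, and Fos at 0 h and Ccn2 at 6 h show the widest spread.

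Transcription factor genes of the Fos, Jun, Atf, Egr, Nr4a and Maf families were higher in most cases. Of the 18 on the array 17 were tested, 15 rose, 0 fell, and the median change was 2.04, against the shares and the median of -0.02 given for all genes. A total of 10 of them rose at least 2-fold. Those with the smallest rises included Egr1 and Egr2. Egr1 read 3164, 1479 and 1524 at 0 h and 4627, 3091 and 3241 at 6 h, so that the highest 0 h array lay within the range of the 6 h arrays. Its log2 change was 0.90 ± 0.29 (SE; adjusted p = 0.02), and the call ended without replicate 2 or 3 of 0 h or replicate 1 of 6 h, with changes of 0.71 to 0.73, and in a fit to the 6 arrays alone (adjusted p = 0.057, limma). Egr2, at 0.74 ± 0.24 (SE), lost its call without any of 4 arrays, with changes of 0.56 to 0.68, and in the fit to the 6 arrays alone (adjusted p = 0.056).

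Of 28 other activity-regulated transcription factor genes tested, 18 rose (64.3%) and 1 fell (3.57%), against 16.1% and 25.5% of all genes. Their median was 0.51. Cebpb, a CCAAT-binding factor, rose from 1316, 1133 and 1228 to 3733, 4410 and 4716. Klf5 rose from 81.6, 63.6 and 74.8, close to the floor, to 273, 255 and 404. Among the 7 MEF2 and class IIa deacetylase genes tested, 4 rose (57.1%) and 0 fell. MEF2 proteins are the transcription factors that the other arm of the study targets, and the class IIa deacetylases bind and repress them. Hdac5 had the largest change of these 7, from 1543, 1279 and 1113 to 3119, 3040 and 3199, or 2.40-fold. Mef2c rose from 575, 625 and 706 to 1015, 999 and 1165. Mef2d rose by a smaller amount, 0.46 ± 0.08 on the log2 scale (SE). Mef2a was not called, at -0.08 ± 0.10 (SE), and its sign changed to 0.14 for the mean of its probe sets and to 0.018 without replicate 1 of 6 h.

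Of 21 neuropeptide and granule genes tested, 11 rose (52.4%, against 16.1% of all genes), 0 fell and 10 were not called, with a median of 0.58. Vgf, a precursor of secreted peptides, rose from 3333, 3944 and 2516 to 9080, 9394 and 9683, or 2.92-fold (adjusted p = 3.5e-06). Scg2, the granin secretogranin II, rose from 1908, 1969 and 1616 to 4561, 3626 and 4444. The natriuretic peptide gene Nppc rose from 358, 405 and 267 to 815, 781 and 930, and the secreted pentraxin gene Nptx1, whose product clusters AMPA receptors, rose 1.56-fold. Of 31 neurotrophin, growth factor and receptor genes, 12 rose (38.7%), 0 fell and 19 were not called, with a median of 0.13. Beside Bdnf and Il6r, the shared signal-transducing chain Il6st rose by 0.59 on the log2 scale and the FGF receptor gene Fgfr2 by 0.75.

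The genes of an activin subunit and of an activin inhibitor changed in opposite directions. Inhbb, the beta B subunit of activin, read 1822, 1993 and 1878 at 0 h and 2952, 3809 and 4304 at 6 h. Fst, the secreted protein follistatin that binds and neutralizes activin, read 742, 1577 and 1438 at 0 h and 272, 373 and 311 at 6 h. The changes were 0.94 ± 0.12 and -1.91 ± 0.31 (SE), and in neither gene did the groups overlap. The receptor gene Acvr2a rose by 0.58 and Tgfb3 by 0.54. Smad7, whose product inhibits TGF-beta signalling, rose as well, by 0.48, so not all inhibitors fell. In the whole list of 28 activin, BMP and TGF-beta genes tested, 9 rose (32.1%) and 5 fell (17.9%), against 16.1% and 25.5% of all genes. The median was 0.13.

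Effectors known to be regulated by activity at synapses and dendrites rose in 17 of 21 cases (81.0%, against 16.1% of all genes). None fell, and their median was 0.63. Gadd45b, a stress-response protein tied to DNA demethylation, rose from 286, 182 and 246 to 869, 1056 and 794. Gadd45g rose 3.35-fold. The protocadherin genes Pcdh8 and Pcdh10, whose proteins act in adhesion between neurons, rose from 1334, 1513 and 1499 to 4300, 4013 and 3503 and from 467, 359 and 416 to 996, 936 and 1060. Arc, an organizer of AMPA receptor endocytosis, was only slightly above its 0 h level at 6 h, with 520, 398 and 421 against 583, 576 and 570. Its change of 0.38 ± 0.12 (SE; adjusted p = 0.019) was no longer called without replicate 2 or replicate 3 of 0 h (log2 0.30 and 0.34). Homer1, a postsynaptic scaffold protein gene known for a short, activity-induced form, differed strongly between probe sets. It rose by 0.24 ± 0.07 (SE) on its brightest probe set, by 3.39 and 3.10 on 2 others, and by 0.30 on another (adjusted p = 6.7e-09, 5.4e-06 and 0.016, limma). The form that each probe set detects was not examined here.

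Products of MAP kinase phosphatase and feedback inhibitor genes end kinase and calcium signals. Of 17 such genes tested, 10 rose (58.8%) and 2 fell (11.8%), against 16.1% and 25.5% of all genes. The other 5 were not called, and the median was 0.64. Dusp1, a nuclear phosphatase of MAP kinases, rose from 1044, 1194 and 881 to 3780, 4380 and 4436 (log2 2.02 ± 0.10, SE; adjusted p = 1.1e-09). Rcan2, a regulator of the phosphatase calcineurin, rose from 765, 739 and 521 to 2167, 2701 and 2947. Dusp5 and Dusp14 rose 2.59-fold and 1.96-fold.

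Promoter sequences were examined because activity-regulated transcription factors bind short, known motifs near gene starts. RefSeq promoters of assembly GRCr8, from 250 bases before to 50 bases after the start, were matched for 9088 of the 10934 genes. The motifs were searched on both strands, and no test was made of their shares. The CRE letters TGACGTCA, bound by CREB and CREM, were found in 3.36% of all these promoters, in 5.66% of those called higher (84 of 1483), in 3.10% of those called lower and in 2.82% of those not called. Among rises of at least 2-fold the share was 6.62% (10 of 151), and among such falls 2.19% (3 of 137). The AP-1 letters TGANTCA were found in 4.71% of all promoters, in 5.33% of those called higher, in 3.39% of those called lower and in 5.13% of those not called. Their share was 9.27% in the 2-fold rises (14 of 151) and 4.38% in the 2-fold falls, so the higher share was not seen over all genes called higher. The E-box letters CACGTG were found in 9.74% of all, in 10.0% of those called higher and in 10.2% of those called lower, and in 8.61% and 5.11% of the 2-fold rises and falls. The Egr letters GCGNGGGCG were in 10.6% of all promoters, 11.3% of those called higher, 10.0% of those called lower, 13.9% of the 2-fold rises and 8.76% of the 2-fold falls. GC content differed little, with a median of 61.3% over all promoters, 64.0% in the 2-fold rises and 60.7% in the 2-fold falls. A match is a description of the letters and does not show binding.

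The 250 bases before the start are shown for 6 genes whose values are given here, with 1 motif per gene in capitals. Of these genes 5 rose at least 9.56-fold or belong to the granule and phosphatase groups, and 1 fell. Further matches stay in lower case, namely E-box and Egr letters in Vgf and an E-box in Dusp1. In Vgf (chr12:25277021-25277270, minus strand) the CRE begins 90 bases before the start, in Scg2 (chr9:88256867-88257116, minus strand) 123 bases and in Dusp1 (chr10:17184603-17184852, plus strand) 124 bases. In Serpinb2 (chr13:24055771-24056020, plus strand) and Tchh (chr2:181786859-181787108, plus strand) the AP-1 letters begin 189 and 99 bases before the start. In Arrdc4 (chr1:131793426-131793675, minus strand) the E-box begins 177 bases before it.
Vgf: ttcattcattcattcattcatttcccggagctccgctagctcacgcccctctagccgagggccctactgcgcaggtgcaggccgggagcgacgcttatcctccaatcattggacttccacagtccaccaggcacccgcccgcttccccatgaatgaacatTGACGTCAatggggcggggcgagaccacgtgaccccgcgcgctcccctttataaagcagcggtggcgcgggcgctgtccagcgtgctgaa
Scg2: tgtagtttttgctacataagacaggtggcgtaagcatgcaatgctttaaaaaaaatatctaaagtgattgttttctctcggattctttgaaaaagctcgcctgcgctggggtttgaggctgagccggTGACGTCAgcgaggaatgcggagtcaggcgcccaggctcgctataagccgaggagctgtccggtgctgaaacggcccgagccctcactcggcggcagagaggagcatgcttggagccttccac
Dusp1: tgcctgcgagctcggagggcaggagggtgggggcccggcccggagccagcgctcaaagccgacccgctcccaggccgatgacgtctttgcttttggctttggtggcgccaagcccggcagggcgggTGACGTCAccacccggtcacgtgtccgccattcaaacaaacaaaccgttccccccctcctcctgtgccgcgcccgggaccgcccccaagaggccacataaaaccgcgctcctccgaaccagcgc
Serpinb2: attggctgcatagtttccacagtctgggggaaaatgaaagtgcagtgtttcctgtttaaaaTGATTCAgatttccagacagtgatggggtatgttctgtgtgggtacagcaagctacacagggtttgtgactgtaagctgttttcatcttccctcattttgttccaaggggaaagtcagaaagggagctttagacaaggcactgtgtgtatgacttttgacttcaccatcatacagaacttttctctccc
Tchh: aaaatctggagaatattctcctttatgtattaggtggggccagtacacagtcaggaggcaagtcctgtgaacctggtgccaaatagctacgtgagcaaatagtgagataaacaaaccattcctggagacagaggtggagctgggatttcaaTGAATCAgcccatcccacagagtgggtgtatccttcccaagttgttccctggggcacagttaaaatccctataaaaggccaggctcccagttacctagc
Arrdc4: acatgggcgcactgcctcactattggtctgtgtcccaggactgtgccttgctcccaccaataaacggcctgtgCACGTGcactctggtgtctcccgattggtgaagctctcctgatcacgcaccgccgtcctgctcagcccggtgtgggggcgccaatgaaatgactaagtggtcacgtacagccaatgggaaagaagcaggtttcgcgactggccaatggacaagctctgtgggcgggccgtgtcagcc

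The 20 largest falls ranged from 2.91-fold to 6.59-fold, and 3 of the leading 4 belong to the alpha-arrestins, adaptor proteins that direct the uptake and turnover of membrane proteins. Arrdc4 fell from 785, 782 and 812 to 112, 126 and 124, a change of -2.72 ± 0.13 (SE; adjusted p = 1.1e-09). Txnip, an alpha-arrestin that binds thioredoxin and limits glucose uptake, fell from 3278, 2839 and 3682 to 563, 539 and 470, and Arrdc3 from 2632, 1692 and 2031 to 616, 401 and 461. Zc3h6, a zinc-finger gene of the CCCH type, read 303, 376 and 286 at 0 h and 41.2, 51.4 and 54.7 at 6 h, under the floor on every array, so it was at least 4.39-fold lower. In the list of 14 arrestin-like and glucose-responsive genes tested, 3 rose (21.4%) and 6 fell (42.9%, against 25.5% of all genes), with a median of -0.09. The falls of that list thus rest on few members, and the kinase gene Pdk2, an inhibitor of pyruvate dehydrogenase, was next at 1.70-fold lower.

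Receptors and signalling proteins were among the other falls. Nr3c2, the mineralocorticoid receptor, fell from 1828, 1671 and 1447 to 341, 519 and 527. Kndc1, a brain-enriched exchange factor for Ras, fell from 363, 411 and 385 to 102, 130 and 165. Aph1bl2, named for its likeness to a gamma-secretase subunit, fell from 882, 726 and 706 to 259, 244 and 228. Arpp21, a cAMP-regulated phosphoprotein, fell from 1985, 2465 and 2234 to 636, 723 and 651 on its brightest probe set. Another probe set of Arpp21 rose by 1.41 on the log2 scale, and the mean of its probe sets was at 0.070, so the direction for this gene depended on the probe set.

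Further falls were in genes of mitochondria, metabolism and protein handling. Tefm, a factor for transcription elongation in mitochondria, fell from 444, 389 and 375 to 149, 110 and 128. Thnsl1, a threonine synthase-like protein, fell from 292, 295 and 265 to 87.8, 90.8 and 100. Both had groups far apart, at 3.15-fold and 3.06-fold lower. Slc16a6, a member of the monocarboxylate transporter family, varied more at 0 h, with 513, 299 and 424 against 142, 128 and 130. Ngly1, which removes sugar chains from misfolded glycoproteins, fell from 1230, 1052 and 1083 to 465, 345 and 353. Scrn3, of the secernin family, fell from 849, 841 and 656 to 235, 240 and 195, and Ccdc34 from 317, 332 and 281 to 99.8, 90.5 and 87.0. Tmem121b, C17h7orf25, Taf11l1, Zmat1 and Cfap97, whose roles are less well described, fell between 2.91-fold and 3.46-fold.

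Zinc-finger genes were the largest list with a shift to lower expression. Of 229 genes on the array whose symbols begin with Zfp or Znf, most of which encode DNA-binding proteins, 189 were tested. A total of 75 fell and 21 rose, with a median of -0.15, so the share called lower was 39.7% against 25.5% of all genes. The number lower was 69 to 75 when any of the 6 arrays was left out and 69 to 88 under the other settings. Zfp9 fell from 960, 960 and 848 to 342, 337 and 394. Zfp157 fell from 800, 771 and 764 to 358, 339 and 362, and Zfp512 from 1771, 1869 and 1721 to 975, 1093 and 1071. Zfp668 fell 1.62-fold. At 1 h 37 of these genes were already called lower and 1 higher, against 1.51% and 1.19% of all genes. In the RNAi arm 76 were called lower and 17 higher at 6 h, against 25.3% and 14.7% of all genes. With the replicate number as a block 26 were higher in that arm.

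Of 50 chromatin regulator genes, 13 rose (26%) and 12 fell (24.0%), the latter near the 25.5% of all genes. The acetyltransferase gene Crebbp, whose protein is the CREB coactivator, rose from 1926, 1600 and 1722 to 3358, 3361 and 3660, while another of its probe sets fell by 0.58 on the log2 scale. Tet1, which oxidizes methylated cytosine, fell from 728, 658 and 684 to 341, 357 and 274. The histone methyltransferase gene Ezh1 fell 1.77-fold and the acetyltransferase gene Kat2a 1.53-fold. Of 50 splicing and 3′ end processing genes, 16 rose (32.0%) and 11 fell (22%). The number higher was 9 without replicate 2 of 0 h or replicate 1 of 6 h. Cstf2, a subunit of the cleavage stimulation factor, rose from 1020, 868 and 694 to 1866, 1927 and 2081. Mbnl2, a muscleblind-like splicing regulator, rose 2.25-fold. Pcf11, which acts in transcription termination, fell by 0.82 on the log2 scale and Celf2 by 0.58. The call for Celf2 did not hold for the mean of its probe sets (log2 -0.25).

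Among the metabolic lists, that of amino acid response and tRNA synthetase genes had the largest share of rises. Of its 44 genes only 29 were on the array, and these were all tested. Of the 29, 17 rose (58.6%) and 1 fell (3.45%), against 16.1% and 25.5% of all genes. The median was 0.26. No tRNA synthetase gene is among those shown here. Slc7a1, a transporter of cationic amino acids, rose from 3106, 2902 and 3075 to 6126, 5575 and 5415. Psph, the last enzyme of serine synthesis, rose from 1666, 1377 and 1556 to 3334, 3005 and 2737, and the mitochondrial folate enzyme gene Mthfd2 from 2250, 2177 and 2150 to 4011, 3646 and 3633. Vldlr, a lipoprotein and reelin receptor kept in this list as a target of the amino acid response, rose 2.13-fold. At 1 h 1 gene of this list was called higher, against 1.19% of all genes.

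Stress and chaperone genes were split, with 8 of 29 higher (27.6%) and 6 lower (20.7%), against 16.1% and 25.5% of all genes. The number higher was 5 without replicate 2 of 0 h. Chac1, a glutathione-degrading enzyme, rose from 2432, 2306 and 2796 to 7280, 7173 and 7014. Herpud1, a protein of the degradation pathway of the endoplasmic reticulum, rose from 1331, 1228 and 1368 to 3221, 3324 and 3350. The cytosolic chaperone genes Hsph1 and Dnajb1 rose 1.36-fold and 1.34-fold. Energy metabolism gave small changes in both directions. Of 23 glycolysis and pyruvate genes 5 rose (21.7%) and 5 fell (21.7%). The lactate transporter gene Slc16a1 rose 1.58-fold, Pgam1 rose 1.32-fold, and Pfkm, a phosphofructokinase subunit, fell 1.27-fold. Pfkfb2, which makes the activator of phosphofructokinase, fell 1.82-fold, while its 2 other probe sets above the filter stood at 0.06 and -0.02 and were not called.

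Of 27 cholesterol and fatty acid synthesis genes, 8 rose (29.6%, against 16.1% of all genes) and 6 fell (22.2%). Elovl6, which lengthens fatty acids, rose from 2764, 2776 and 2447 to 4598, 5028 and 5289. The sterol enzyme genes Sc5d and Cyp51 rose 1.67-fold and 1.54-fold, and Pmvk, an earlier enzyme of the pathway, fell 1.67-fold. Of 75 respiratory chain and ATP synthase genes, 3 rose (4.0%) and 18 fell (24.0%, near the 25.5% of all genes), with a median of -0.05 that became positive, though near 0, when arrays were centred. The number lower was 11 without replicate 2 of 6 h. The complex I subunit gene Ndufs1 fell from 1898, 1684 and 1612 to 1080, 925 and 1012. Ndufs3 and Ndufv2 fell 1.25-fold and 1.23-fold, and Ndufa5 rose 1.32-fold.

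Of 19 voltage-gated potassium channel genes tested, 4 rose (21.1%) and 7 fell (36.8%, against 25.5% of all genes), with a median of -0.07. Kcna1, a delayed rectifier subunit, rose from 454, 658 and 637 to 1189, 949 and 1476. The accessory subunit gene Kcnab1 fell from 643, 637 and 607 to 298, 363 and 367, Kcnip1 fell by 0.97 on the log2 scale, and Kcnh1 fell by 0.68. Of 17 other potassium channel genes the only call was Kcnj4, an inward rectifier, which rose from 795, 963 and 853 to 1949, 2377 and 2502. Of 21 sodium and calcium channel genes 3 rose (14.3%) and 3 fell (14.3%). The L-type channel gene Cacna1d fell 1.73-fold, the sodium channel subunit gene Scn2b fell by 0.68 on the log2 scale, and the accessory calcium channel subunit gene Cacnb2 rose 1.68-fold. Cacna1b, of the N-type channel, fell 1.53-fold on its brightest probe set, but another probe set rose by 0.31 on the log2 scale and the mean of its probe sets was not called (log2 -0.15).

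Most genes of glutamate and GABA receptors and of GABA synthesis were not called, and the calls were under 2-fold. Of 18 glutamate receptor genes, 1 rose (5.56%) and 2 fell (11.1%), against 16.1% and 25.5% of all genes. The kainate receptor gene Grik4 fell from 481, 499 and 469 to 341, 362 and 354, and the metabotropic receptor gene Grm4 fell 1.38-fold. Grin1, the obligatory NMDA receptor subunit, rose by 0.29 (adjusted p = 0.03), a call that ended without replicate 1 of 0 h or replicate 2 or 3 of 6 h (log2 0.22, 0.27 and 0.28). Of 12 genes of GABA synthesis and receptors, 2 rose (16.7%) and 0 fell. Gad1, which makes GABA, rose from 1346, 1037 and 865 to 2165, 1660 and 2285, and Gabrb1 rose 1.41-fold.

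Of 26 scaffold and adhesion genes 8 rose (30.8%) and 6 fell (23.1%), against 16.1% and 25.5% of all genes. The number lower was 3 without replicate 3 of 0 h. Lgi1, a secreted synaptic protein, rose from 478, 481 and 489 to 875, 889 and 977. Dlg2 rose 1.47-fold, while its relative Dlg3 fell from 607, 646 and 641 to 347, 377 and 361, and Pick1 fell 1.32-fold. Of 28 vesicle genes 4 rose (14.3%) and 3 fell (10.7%). Rab3c, a GTPase of synaptic vesicles, rose from 245, 301 and 251 to 466, 590 and 611. Vamp1 rose by 0.58 on the log2 scale, and Cplx1, a regulator of fusion, fell by 0.29. Those vesicle counts are small, and the number lower was 1 without replicate 2 or 3 of 0 h or replicate 1 of 6 h, while the number higher was 2 without replicate 1 of either group.

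Genes of calcium and G protein signalling were called in both directions. Of 31 calcium and calmodulin genes 5 rose (16.1%) and 5 fell (16.1%). The first share equals the 16.1% of all genes and the second is below their 25.5%. The related kinase genes Camkk2 and Camkk1, which activate other calmodulin kinases, went in opposite directions, from 379, 359 and 364 to 520, 587 and 661 and from 676, 660 and 692 to 443, 502 and 465. The calcineurin subunit gene Ppp3cc fell 1.66-fold and the calcium pump gene Atp2a2 rose 1.23-fold. Of 34 G protein and cyclic nucleotide genes 6 rose (17.6%) and 10 fell (29.4%), close to the shares of all genes. Rgs17 rose 1.48-fold. The phosphodiesterase gene Pde10a rose from 667, 1082 and 891 to 1667, 1613 and 1784, and Pde2a fell 1.32-fold.

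In the list of proteases and matrix proteins 9 of 29 genes rose (31.0%, against 16.1% of all genes) and 0 fell, led by Serpinb2 and Ccn2. Ccn1, a relative of Ccn2, rose from 203, 195 and 149 to 563, 864 and 733. Acan, the core protein of the proteoglycan aggrecan in perineuronal nets, rose from 248, 255 and 231 to 494, 532 and 603. Of 34 axon guidance genes 7 rose (20.6%) and 8 fell (23.5%), and 4 rose without replicate 2 of 0 h. Plxna2, a semaphorin receptor, fell from 2376, 2599 and 2464 to 1096, 1337 and 1077 on its brightest probe set, while 2 others were not called (log2 -0.34 and -0.04). The netrin receptor gene Unc5c rose 1.47-fold and Sema4f fell 1.27-fold. Of 22 cadherins and protocadherins 6 rose (27.3%) and 5 fell (22.7%). Pcdh20 rose 1.72-fold and Pcdh18 fell 1.48-fold. Of 40 cytoskeleton genes 7 rose (17.5%) and 3 fell (7.5%). Beside Tchh, the gene Sprr1a, which is known to rise in injured neurons, rose from 318, 341 and 358 to 805, 617 and 665. The myosin light chain gene Myl9 fell from 516, 388 and 478 to 233, 234 and 266, and Lmna rose 1.47-fold.

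The Per and Cry genes, which repress the circadian loop, rose. Per1 rose from 578, 486 and 410 to 998, 1120 and 1432, and Cry1 from 787, 703 and 766 to 1304, 1609 and 1515. Per2 and Cry2 rose 1.83-fold and 1.71-fold. In the whole clock list 5 of 17 genes rose (29.4%) and 6 fell (35.3%), against 16.1% and 25.5% of all genes. Among 17 nuclear receptor genes 4 rose (23.5%) and 6 fell (35.3%). The retinoic acid receptor genes Rara and Rarb changed in opposite directions, with 298, 270 and 310 against 389, 398 and 389 for Rara and 243, 261 and 276 against 144, 151 and 166 for Rarb.

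Of 21 apoptosis and p53 genes 4 rose (19.0%) and 8 fell (38.1%), against 16.1% and 25.5% of all genes. The caspase gene Casp9 fell from 851, 883 and 820 to 561, 558 and 597, and Bid, which links death receptors to mitochondria, fell 1.57-fold. The antiproliferative genes Btg3 and Btg1 rose 2.04-fold and 1.37-fold. These counts fell to 2 higher without replicate 2 or 3 of 0 h or replicate 3 of 6 h, and to 5 lower without replicate 1 of 0 h or replicate 3 of 6 h. Of 18 polyamine and nucleotide genes 6 rose (33.3%) and 6 fell (33.3%). Sat1, which breaks down polyamines, rose from 2196, 1923 and 1568 to 3687, 4037 and 4358, whereas Odc1, which starts their synthesis, fell from 7050, 6169 and 6338 to 4624, 4292 and 4439. Nampt, an enzyme of NAD synthesis, rose 1.92-fold and Ctps1, which makes CTP, fell 1.48-fold.

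Of 26 ubiquitin ligase genes 8 rose (30.8%) and 1 fell (3.85%), against 16.1% and 25.5% of all genes. The number lower was 2 without replicate 1 of 0 h and 0 without replicate 3 of 0 h or replicate 1 of 6 h. Siah2 and Nedd4l rose 1.70-fold and 1.76-fold, and Ube3a, the ligase of Angelman syndrome, rose 1.38-fold. Cul3 rose 1.39-fold on its brightest probe set, but another probe set fell by 0.91 on the log2 scale and the mean was at -0.14. Of 36 proteasome subunit genes 2 rose (5.56%) and 5 fell (13.9%). The core subunit genes Psma3 and Psma4 fell from 3207, 3613 and 3726 to 2385, 2329 and 2337 and from 6230, 5697 and 5784 to 4484, 4125 and 4286. Psmd6 fell 1.21-fold and Psmd5 rose 1.29-fold. Of 42 cytosolic ribosomal protein genes 5 rose (11.9%) and 0 fell, with a median of 0.05. Rpl13a rose 1.17-fold. Without replicate 2 of 0 h or replicate 3 of 6 h 2 of them rose, and without replicate 3 of 0 h 3 did. In the interferon and inflammation list 0 of 15 genes rose and 1 fell (6.67%), Stat2, at 1.56-fold lower. Of 9 housekeeping controls 2 rose (22.2%) and 0 fell, among them Hprt1 at 1.29-fold.

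Solute carriers were the largest list, with 194 of 269 genes tested, 33 higher (17.0%) and 46 lower (23.7%), shares close to those of all genes. The thiamine transporter gene Slc19a2 rose from 1099, 870 and 884 to 2767, 2841 and 2933. The iron exporter gene Slc40a1 rose from 454, 475 and 465 to 1022, 905 and 998, and the mitochondrial carrier gene Slc25a25 rose 1.96-fold. The sodium and calcium exchanger gene Slc24a2 fell from 2232, 2117 and 2258 to 1076, 1202 and 1215.

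**Figure D3:**
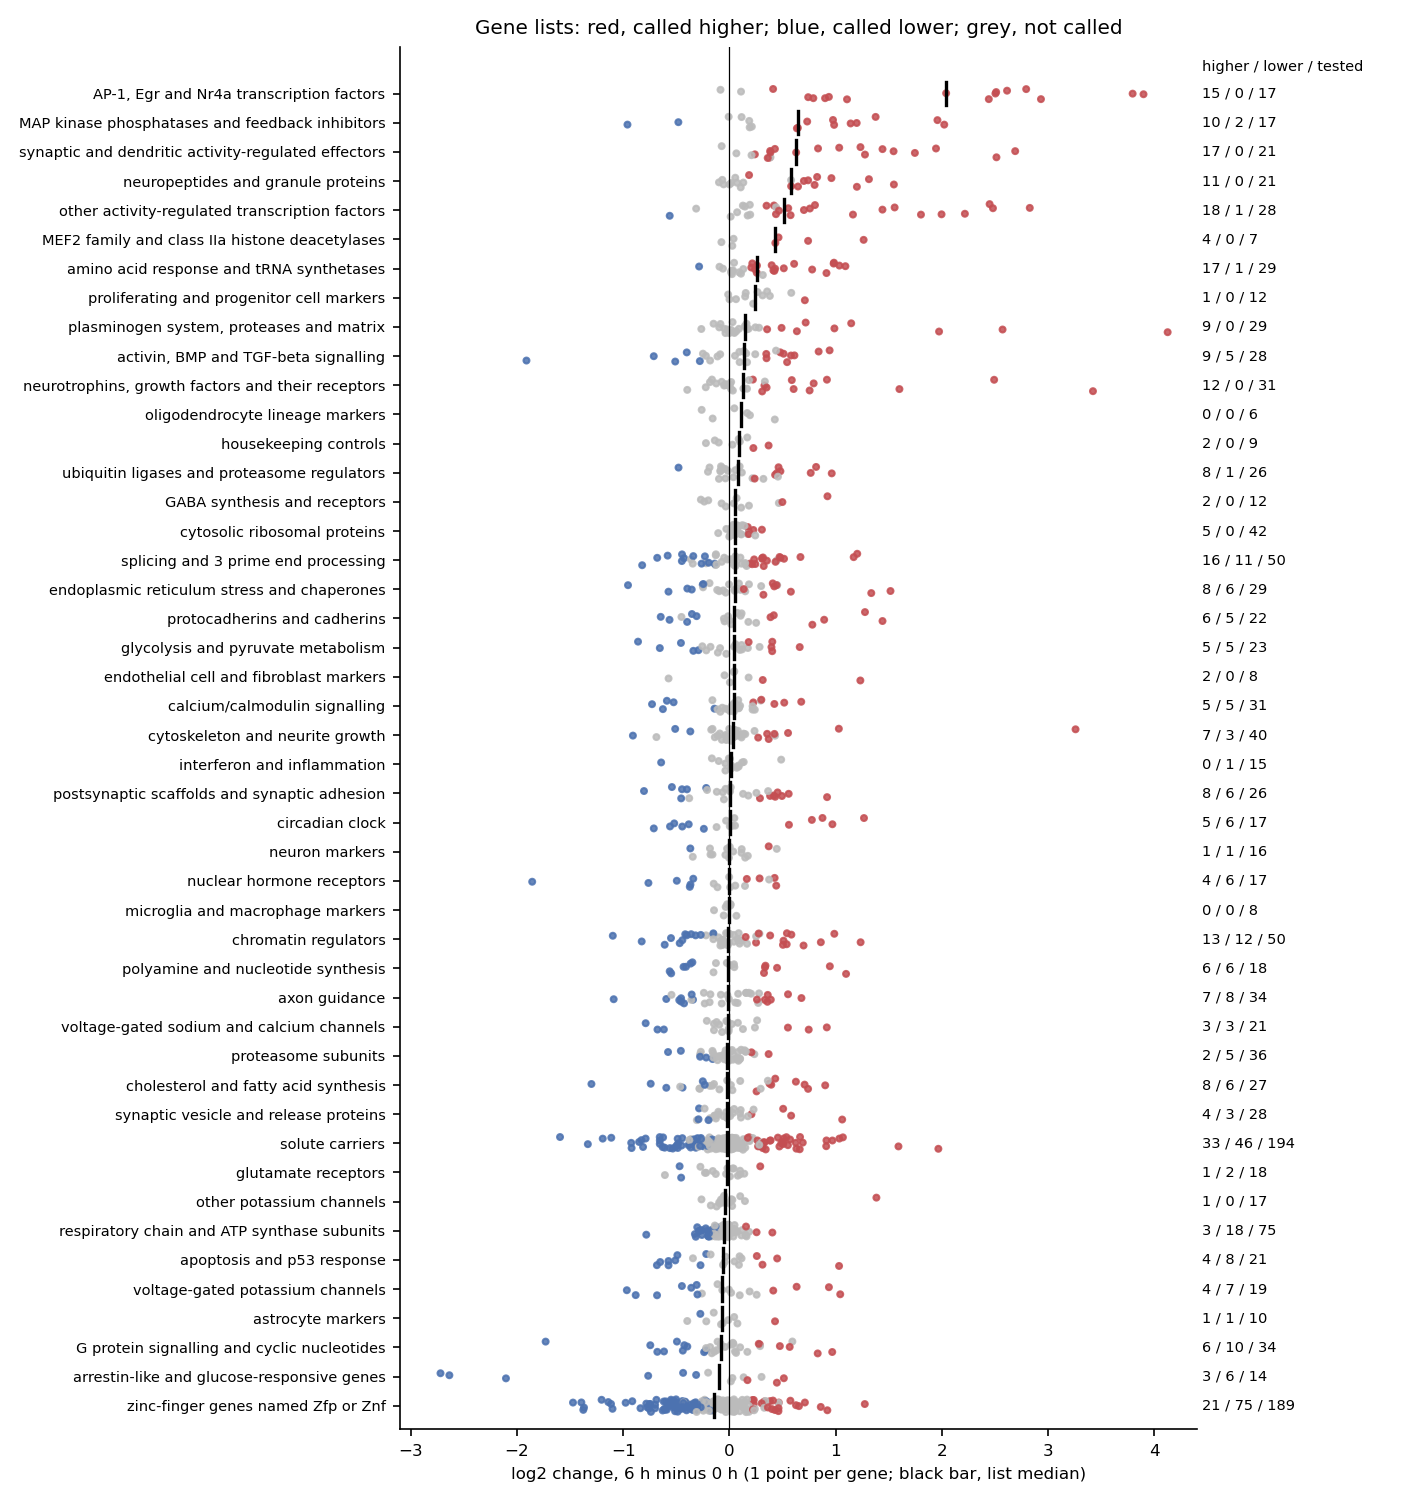
The log2 change from 0 h to 6 h (horizontal axis) of every tested member of the 46 gene lists, 1 point per gene, with red for called higher, blue for called lower and grey for not called, and a black bar at each list's median; vertical position within a list is jitter. Counts at the right give members higher, lower and tested, from 15, 0 and 17 for the AP-1, Egr and Nr4a genes at the top to 21, 75 and 189 for the zinc-finger genes at the bottom.

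The time at which these changes appeared was read from the 3 control arrays at 1 h. The comparisons of 1 h and 6 h with 0 h share the 0 h arrays, so their values are given side by side, and the difference between the times was tested directly as 6 h against 1 h. At 1 h 130 genes were higher (1.19%) and 165 lower (1.51%) than at 0 h, and 235 and 366 with the replicate number as a block. The number lower was 98, 88 and 95 without replicate 1 or 2 of 0 h or replicate 3 of 1 h. At 6 h 1642 genes were higher (15%) and 2236 lower (20.4%) than at 1 h. A total of 1328 genes (12.1%) were called higher at 6 h both than at 0 h and than at 1 h, 22 (0.201%) were higher than at 0 h but lower than at 1 h, and for 412 (3.77%) 6 h against 1 h was not called. The matching counts for falls were 2066 (18.9%), 9 (0.0823%) and 709 (6.48%). With the block the falls that were back from 1 h numbered 24. Both of these sets rest on the same 6 h arrays.

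Among the 20 largest rises, 12 were higher at 6 h than at 1 h, 5 were lower and 3 did not differ by the test. Serpinb2, Tchh, Il6r and Ccn2 had changes of 0.00, -0.12, -0.16 and 0.23 on the log2 scale at 1 h. At 6 h these were 4.12, 3.26, 2.49 and 2.57. All 0 h and 1 h arrays of Serpinb2 lay under the floor, so its 1 h change of 0.00 was set by the floor. Bdnf stood at 1.02 at 1 h and 3.42 at 6 h, and Sgk1 at 0.48 and 2.40. Of these 6 genes Bdnf was already called higher at 1 h (adjusted p = 0.0016, limma). Fosb, Junb, Egr4, Nr4a2 and Nr4a1 were the 5 that came down, from 5.06, 3.97, 4.33, 3.29 and 3.35 at 1 h to 3.90, 2.93, 2.79, 2.61 and 2.44 at 6 h. Fos, Gem and Maff were about as high at both times, with 6 h against 1 h not called (adjusted p = 0.29, 0.39 and 0.77, limma). Arc fell back the farthest of the genes named here, from 3.02 at 1 h to 0.38 at 6 h, and Egr1 and Egr2 went from 2.87 and 2.94 to 0.90 and 0.74. Ccn1 and Dusp1 also came down, from 3.40 and 2.91 to 1.97 and 2.02. In the list of Fos, Jun, Egr, Nr4a and Maf genes 14 were called higher at 1 h (against 1.19% of all genes) with a median of 2.43. Of its 17 members 8 were lower at 6 h than at 1 h, against 20.4% of all genes.

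Of the 20 largest falls 19 were called lower at 6 h than at 1 h. Txnip was the exception, with -2.27 ± 0.24 (SE) at 1 h and -2.64 ± 0.24 at 6 h, and 6 h against 1 h was not called (adjusted p = 0.28, limma). Arrdc3 and Arrdc4, of the same family, stood at -1.14 and -0.61 at 1 h and at -2.10 and -2.72 at 6 h. Nr3c2, Scrn3, Ccdc34, Ngly1 and Kndc1 had changes between -0.18 and 0.06 at 1 h. Of the 185 genes at least 2-fold higher at 6 h, 158 were higher than at 1 h and 13 lower, and of the 166 at least 2-fold lower 162 were lower than at 1 h and 0 higher.

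**Figure D4:**
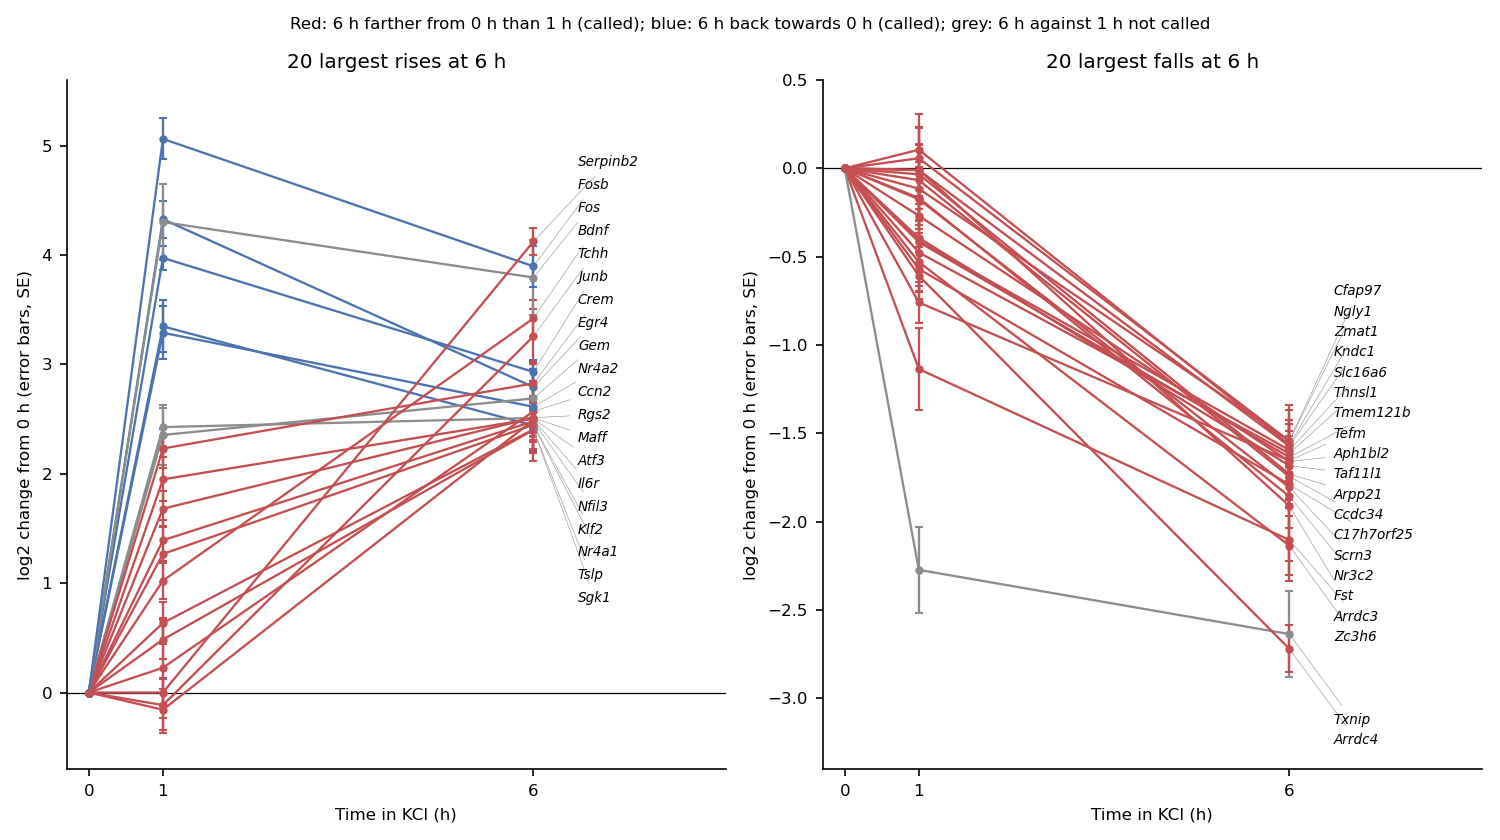
The log2 change from 0 h (vertical axis, error bars are SE) at 1 h and 6 h of KCl (horizontal axis, hours) for the 20 largest rises (left) and falls (right) in control neurons. Red lines mark genes farther from 0 h at 6 h than at 1 h by the test (12 rises, 19 falls), blue lines genes that came back (5 rises, 0 falls), and grey lines genes whose 6 h and 1 h values were not called different (3 rises, 1 fall).

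The same comparison could be made in the RNAi arm, whose 6 arrays share none with the control arm. Control and RNAi arrays with the same replicate number had related deviations from their group means, however. These correlated at 0.737, 0.505 and 0.664 at 6 h and at 0.496, 0.341 and 0.38 at 0 h for replicates 1, 2 and 3. Both comparisons also used 1 estimate of the spread, so the arms are not independent experiments. In the RNAi arm 1612 genes were higher at 6 h than at 0 h (14.7%) and 2767 lower (25.3%). With each array centred on its median the number higher was 2696, so the share of higher calls in that arm changed from 36.8% to 56.0%. Of the 1762 genes higher in control neurons, 1702 changed in the same direction in the RNAi arm and 1227 were called higher there, which is 69.6% of the control list and 76.1% of the RNAi list. Of the 2784 lower genes, 2744 had the same direction and 2232 were called, 80.2% of the control list and 80.7% of the RNAi list. Only 3 and 4 genes were called in the opposite direction. Across all genes tested the log2 changes of both arms correlated at r = 0.906 (Spearman rho = 0.865), a description across genes, and genes are no independent replicates.

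The 185 genes at least 2-fold higher in control neurons had a median change of 1.26 there and of 1.02 in the RNAi arm, and 159 of them had the smaller value in the RNAi arm. These genes were chosen by their value in control neurons, so a smaller value in other arrays is favoured by that choice. For the 166 genes at least 2-fold lower the medians were -1.19 and -1.17, and 103 of them had the smaller fall in the RNAi arm. All 20 of the largest rises and all 20 of the largest falls were also called in the RNAi arm. Bdnf rose by 3.42 in control and by 2.64 in RNAi neurons, Serpinb2 by 4.12 and 3.43, Tchh by 3.26 and 1.92, and Atf3 by 2.50 and 1.07. The differences in these 4 genes were not called (adjusted p = 0.26, 0.19, 0.2 and 0.082, limma). With the replicate number as a block those of Serpinb2, Tchh and Atf3 were called (adjusted p = 0.041, 0.041 and 0.0061) and that of Bdnf was not (0.072). Fosb rose by 3.90 and 4.08, and Emp1, a membrane protein of epithelia, by 2.25 and 2.87, with adjusted p of 0.94 and 0.71 for the difference.

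The test of the difference between the arms called 13 genes (0.119%), 10 with a lower (0.0915%) and 3 with a higher (0.0274%) response in the RNAi arm, while the unadjusted p was under 0.05 for 901 genes. With the replicate number as a block 126 genes were called, 86 lower and 40 higher. The calcium-permeable channel gene Trpc6 had the smallest adjusted p. It read 111, 99.2 and 102 at 0 h and 419, 435 and 439 at 6 h in control neurons, a change of 2.05, and changed by 1.08 with RNAi (difference -0.97, adjusted p = 0.0094). It was called without any of the 12 arrays in turn. Egr4 rose by 2.79 in control and 1.43 in RNAi neurons, and the deubiquitinase gene Otud1, from 765, 708 and 658 to 2748, 2936 and 2965 in control neurons, rose by 2.02 and 0.66. The ubiquitin ligase gene Sh3rf1 rose by 2.39 and 1.56, the histone methyltransferase gene Dot1l by 1.12 and 0.43, and the synaptic scaffold gene Lin7a by 1.25 and 0.60. Smad7, an inhibitor of TGF-beta signalling, changed by 0.48 in control neurons and by -0.26 with RNAi. In the other direction, Arrdc4 fell by 2.72 in control neurons and by 1.64 with RNAi, and Sdhaf3, an assembly factor of succinate dehydrogenase, fell by 0.86 and 0.20. Pdlim1, a protein of actin fibres, fell by 0.37 in control neurons and rose by 0.51 with RNAi. Of the named genes other than Trpc6, each lost its call without at least 3 of the 12 arrays.

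**Figure D5:**
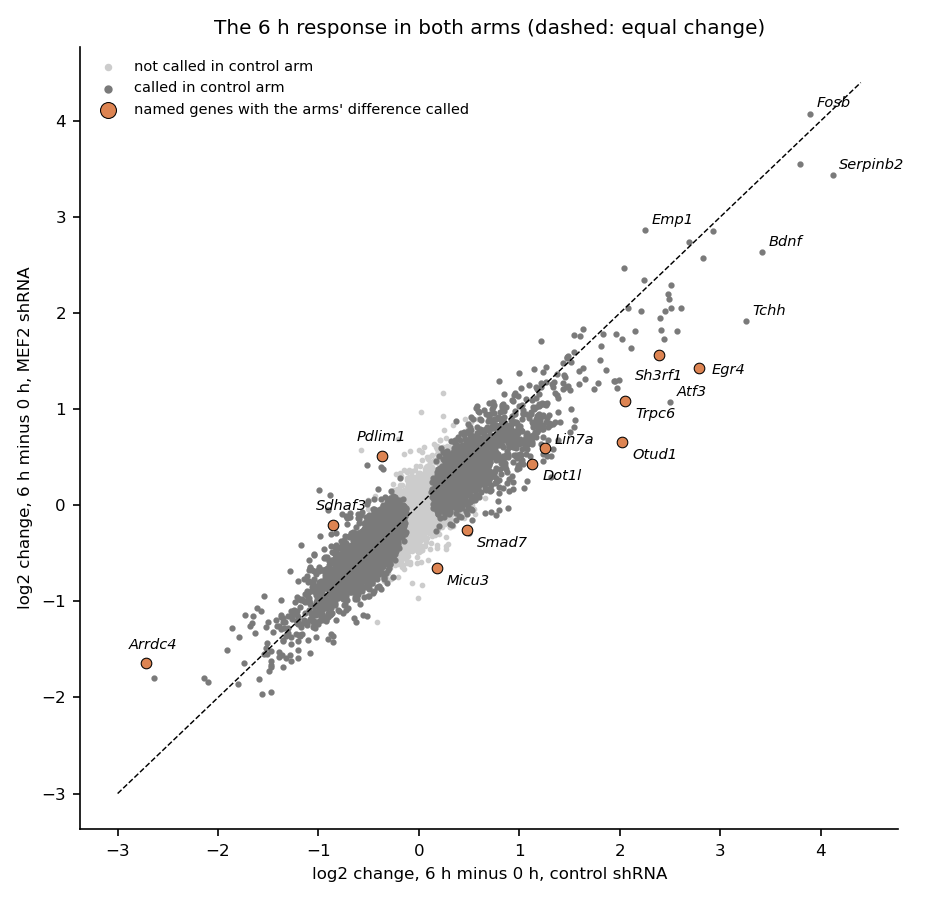
The log2 change from 0 h to 6 h in neurons with MEF2 shRNA (vertical axis) against that in control neurons (horizontal axis), 1 point per tested gene, with the dashed line at equal change. Dark grey points were called in control neurons, and orange points are the 11 named genes whose difference between the arms was called; most orange points to the right, such as Egr4 and Otud1, lie below the line and Arrdc4 lies above it.

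Genes with more than 1 probe set gave a check within the arrays. Of the called genes 1301 had another probe set that passed the filter, 1750 probe sets in all. Of these 743 were called in the same direction, 901 were not called and 106, in 95 genes, were called in the opposite direction. Of the genes picked by the naming rule 57 were called and had another such probe set. In 25 of them at least 1 was not called, among them Fgfr2, Kcnab1, Lmna, Mbnl2, Mef2d, Pcf11, Pdk2, Pfkm, Rgs17, Sc5d, Ube3a and Vamp1. Crem and Emp1 had another probe set with a smaller rise, of 0.73 and 0.37 on the log2 scale. Further probe sets of Crem rose by 1.42, 1.48 and 3.997, the last of these by more than the 2.83 of its brightest probe set. Arpp21, Crebbp, Cul3 and Cacna1b had a probe set called in the opposite direction. The values for these 4 genes describe the transcripts that the brightest probe set detects and not the gene as a whole.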

How the data were processed

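Expression was measured on 18 arrays in 6 groups of 3, grouped by the labels' shRNA, hours of KCl and replicate number. The deposited table holds linear signal intensities for 31099 probe sets. The steps of probe set summary and normalization are not given in the sources used here. Precision is limited by the number of arrays. Of the probe sets, 20832 had 1 gene symbol in the platform annotation, 436 had several and 9831 were unlisted; 20764 matched RefSeq.

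Intensities were raised to a floor of 72.6 (the 20th percentile of the table) and taken to log2. The brightest probe set stood for each of 14218 genes. A gene was kept if it was above its array's 40th percentile on at least 3 arrays. A group-means model was fitted to all 18 arrays with limma 3.58.1 (R 4.3.3; 12 residual degrees of freedom), with Benjamini-Hochberg adjustment over 10934 genes and a threshold of 0.05. Folds are on the scale with the floor and understate the changes of dim genes. The fit was tested on simulated data. Tables were made with Python 3.11.15 and pandas 2.3.3.

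Named were the 20 largest rises and falls among called genes with no overlap of arrays (symbols starting with LOC or RGD passed over), up to 4 members of each of 46 lists by smallest adjusted p, a fixed set of 12 genes, the 5 largest rises and falls of each other comparison and the 10 largest interactions. Other genes named and every second probe set were chosen after their values were seen. The members and lists were chosen with earlier results of these data known.

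Replicate numbers come from the labels. Deviations from the group means correlated at 0.168 to 0.741 (median 0.491) in all 45 pairs of arrays with the same number. In 90 pairs with different numbers they correlated at -0.625 to 0.425 (median -0.23). The numbers were therefore taken to pair the arrays. The main fit did not use this pairing, and adjusted p are from unpaired fits unless the block is named. The alternatives tried were other floors, no filter, median centring, quantile normalization, the mean of all probe sets, fits to the 6 or 9 control arrays, the replicate number as a block and each array left out.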

Additional observations from a re-analysis of the deposited data

Results flagged for a closer look

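The response to 6 h of KCl differed between MEF2 shRNA and control neurons, by a test of the difference itself in limma, for 11 named genes with adjusted p between 0.0094 and 0.036. Differences are RNAi minus control on the log2 scale. The transcription factor gene Egr4 differed by -1.36 and the deubiquitinase gene Otud1 by -1.36. The channel gene Trpc6 differed by -0.97, the ubiquitin ligase gene Sh3rf1 by -0.83, Dot1l by -0.69 and Lin7a by -0.65. Smad7 differed by -0.74, with a rise in control neurons. Micu3, a regulator of mitochondrial calcium uptake, differed by -0.83, from 0.18 in control neurons, which was not called, to -0.65 with RNAi. The 3 positive differences were those of Arrdc4 at 1.08, Pdlim1 at 0.88 and Sdhaf3 at 0.65.

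Of the 12 fits that each leave out an array of either arm, Trpc6 was called in 12, Dot1l in 9, Lin7a in 7, Otud1 and Pdlim1 in 4, Smad7, Micu3, Sdhaf3 and Arrdc4 in 3, and Egr4 and Sh3rf1 in 2. None of the 11 differences changed sign in these fits. In other settings Arrdc4 lost its call with the floor at the 40th percentile (0.67) and with no filter. Egr4 lost its call with the mean of all probe sets (-0.60) and with no filter. Dot1l and Smad7 lost theirs with the mean of all probe sets (-0.35 and -0.25), and Micu3 with no filter.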

How the results depend on the processing

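The counts for control neurons at 6 h against 0 h stayed within 1.5 times under every alternative run: 1524 to 2191 genes higher and 2327 to 3317 lower, and 1458 to 1735 and 2419 to 2545 with an array left out. Changes of at least 2-fold numbered 168 to 217 higher and 160 to 184 lower with an array left out. For 6 h against 1 h these ranges were 1325 to 1594 and 1885 to 2004, and for the RNAi arm 1346 to 1617 and 2386 to 2776. Centring raised the number higher in the RNAi arm to 2696. The difference between arms was the least stable count. The number of genes higher was 5 with centring, 6 with no filter and 40 with the replicate block, and 0 to 4 with an array left out. The number lower was 6 with the mean of all probe sets, 86 with the replicate block and 1 to 13 with an array left out. For 1 h against 0 h, alternatives chosen after seeing the data gave 100 to 144 genes higher and 88 to 160 lower with an array left out, and 235 and 366 with the replicate block. The block moved no count of genes higher or lower by over 1.5 times for 6 h against 0 h in either arm or for 6 h against 1 h.

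With the mean of all probe sets Arpp21 stood at 0.070, Cul3 at -0.14 and Mef2a at 0.14, each opposite in sign to its brightest probe set, and with 1 array left out Mef2a ranged from -0.15 to 0.018. Over the named genes of the control comparison, 3013 values kept direction and side of the threshold, 55 in 17 genes lost the call and these 4 changed sign. The cause was not tested. Genes with signals near the floor of 72.6 have bounds or understated folds only.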
